A study of Homo sapiens with 4 samples.

Results

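The amino acid transporters described here are the genes of the solute carrier families SLC1, SLC3, SLC6, SLC7, SLC36 and SLC38. Members were taken by gene name alone, as every probe on the array whose gene belongs to 1 of these families, and no measured value entered the choice. This gave 78 of 34127 probes and 56 of 25992 gene names. Of the 56 genes, 24 were well above background on all 4 arrays by at least 1 probe, 15 on 1 to 3 arrays, and 17 on none. Well above background is a mark that the scanner software sets on each spot.

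Proximal tubular cells take filtered amino acids back from the urine across their brush border and hand them to the blood at the basolateral side. Some of these carriers work as pairs, in which a glycoprotein of the SLC3 family brings a light chain of the SLC7 family to the membrane, while SLC1, SLC6 and SLC38 carriers use the sodium gradient. Cells short of amino acids activate the transcription factor ATF4, which binds C/EBP-ATF elements in the promoters of several of these carriers and of amino acid synthesis genes.

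RNA came from HPTCs of the cell line HK-2, immortalised with papillomavirus E6 and E7 genes, and of the cell line RPTEC/TERT1, immortalised with the telomerase subunit TERT. Cells went without serum and supplements for 24 h and were then exposed for 24 h to 500 nM Empa, an SGLT2 inhibitor dissolved in DMSO, together with 10 ng/mL IL-1β, so all 4 arrays share both agents. Each line was measured on 2 one-colour Agilent arrays, described as biological duplicates and called array 1 and array 2 here after their replicate number. Control arrays, with no stimulation or with IL-1β only, were not analysed here, so no effect of either agent is given.

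Levels are log2 values of the processed spot signal over the 75th percentile of the same array, with a floor at -5.37. In RNA of whole cultures, fewer cells of a kind and less RNA per cell cannot be told apart, which holds for every level given here. That percentile was 393 to 748, 59.2% to 64.9% of spots were well above background, and no transporter probe was saturated or missing. The arrays went against their labels. Across all probes tested, HK-2 array 1 correlated at 0.983 with RPTEC/TERT1 array 2, and HK-2 array 2 at 0.975 with RPTEC/TERT1 array 1, whereas the arrays of 1 label correlated at 0.852 for HK-2 and 0.837 for RPTEC/TERT1. "HK-2 array 1" therefore means the array labelled so, and no group was formed other than by label. Both lines' array 1 shared a scan date, and so did both lines' array 2.

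Markers of the labelled tissue also differed between arrays of 1 label. Of 16 proximal tubule markers, 12 and 11 were well above background on HK-2 arrays 1 and 2, and 9 and 12 on RPTEC/TERT1 arrays 1 and 2. Their summed level, the log2 of the sum of linear levels, ran from 3.40 to 5.94, and CUBN, SLC22A6 and HNF4A were not well above background on any array. ANPEP and the epithelial cadherin CDH1 were well above background only on HK-2 array 1 and RPTEC/TERT1 array 2. Of 6 epithelial markers, CDH1 was the only one not well above background on every array. The stromal genes DCN and LUM, among 16 markers of other cell types, were so only on HK-2 array 2 and RPTEC/TERT1 array 1, SLC12A1 of the thick ascending limb only on the opposite 2 arrays, and the endothelial gene PECAM1 only on HK-2 array 1. The stromal genes COL3A1 and PDGFRB were at the floor on all arrays, and these 4 genes were picked out after their values were seen. The summed level of those 16 markers was 1.46 and 2.69 on HK-2 arrays 1 and 2, and 2.50 and 1.32 on RPTEC/TERT1 arrays 1 and 2. The part of these markers in the results that follow was not tested.

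Promoter sequence was available for 42 of the 56 genes, as 61 windows of 300 bases from 250 before to 50 after a RefSeq transcription start (GRCh38.p14). The C/EBP-ATF element TGATGNAAN occurred on either strand in 6 of these 61 windows (9.84%), in 3.61% of all 35116 promoters and in 10 of 46 promoters (21.7%) of the amino acid response genes described further on. SLC3A1 and SLC7A11 were among the genes without promoter sequence. The stretches that hold the element are printed because levels of all their genes are given with the results. Capitals mark the element, and the strand after each position is the one printed.
SLC1A3, chr5:36596358-36596386 (+): aggaaatgacTGATGCAAAgcagggttaa
SLC1A4, chr2:64989381-64989409 (-): cggctggagaTGATGCAAAcgggagccgc
SLC1A5, chr19:46784893-46784921 (-): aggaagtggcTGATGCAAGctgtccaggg
SLC38A1, chr12:46266502-46266530 (-): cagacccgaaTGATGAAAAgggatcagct
SLC3A2, chr11:62881725-62881748 (-): ggagcTGATGTAAGgagtcctgca
SLC7A1, chr13:29595663-29595691 (-): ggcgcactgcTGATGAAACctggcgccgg
The antioxidant response element core TGACNNNGC was found on either strand in 7 of the 61 windows (11.5%), against 13.3% of all promoters. No match to it overlapped the stretches printed. A match describes letters in a window and was not tied to binding.

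Detection of transporters was counted by family, on 2 to 19 genes each, and no difference between families was tested. SLC38 had 6 of 11 genes well above background on all 4 arrays, SLC7 had 5 of 13, SLC6 had 7 of 19, SLC1 had 3 of 7, SLC36 had 2 of 4 and SLC3 had 1 of 2. Of the 78 probes, 39.7% were well above background on all 4 arrays and 34.6% on none, against 49.7% and 31.7% of all probes. The 17 genes seen on no array included SLC7A9, the light chain that pairs with SLC3A1 in cystine reabsorption, the brush-border proline carrier SLC6A20, SLC7A10, SLC6A14, and the glial glutamate carrier SLC1A2. The number of transporter probes well above background was 41 and 43 on HK-2 arrays 1 and 2, and 40 and 37 on RPTEC/TERT1 arrays 1 and 2.

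No transporter passed the test between HK-2 and RPTEC/TERT1 as labelled. Whether 2 of the arrays carry each other's label was not tested, and every value of this comparison holds only for the labels as given. Probes well above background on at least 2 arrays were tested with limma, which left 44 transporter probes of 35 genes among 21202 probes. With Benjamini-Hochberg adjustment, limma called 0 of the 44 at 0.05 and 0 of all probes (0.0%), and at an unadjusted p under 0.05 it found 0 of the 44 and 26 of all probes (0.123%). The median difference, HK-2 minus RPTEC/TERT1, was 0.062 for transporter probes and 0.016 for all probes, with median standard errors of 0.64 and 0.60. SLC6A6, the taurine carrier, had the largest difference at 0.56 ± 0.93 (SE, n = 2 arrays a label) on probe A_24_P359191, with an adjusted p of 1 in limma. The 2 HK-2 arrays lay wholly above or below the 2 RPTEC/TERT1 arrays for 3 of 44 probes (6.82%), against 6.86% of all probes.

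Between arrays of the same label, many transporters were over 2-fold apart. HK-2 arrays 1 and 2 differed by that much in 20 of the 44 probes (45.5%, against 35.2% of all probes), 9 higher on array 1 (18.1% of all probes) and 11 on array 2 (17.0%). RPTEC/TERT1 arrays 1 and 2 did so in 24 (54.5% against 41.8%), 13 higher on array 1 (19.2%) and 11 on array 2 (22.6%). With the scan date shared, array 1 of the 2 lines differed in 22 probes (37.2% of all probes) and array 2 in 17 (38.6% against 34.7%). HK-2 array 1 and RPTEC/TERT1 array 2 differed in 1 probe (2.27% against 5.54%), SLC7A6, and HK-2 array 2 and RPTEC/TERT1 array 1 in 3 (6.82% against 7.54%), SLC6A6 on probe A_24_P359191, SLC7A6 and SLC36A4. Differences between single arrays have no replicate check and no test. For a probe that passed the filter through its 2 bright arrays alone, the filter favoured a difference but did not fix its size. Of the 31 probes well above background on all 4 arrays, 12, 16, 14, 10, 0 and 2 were over 2-fold apart in the 6 pairs in the order just given. The shares of all probes above belong to the looser filter of at least 2 arrays. These counts therefore do not say whether transporters differ from other probes.

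**Figure D1:**
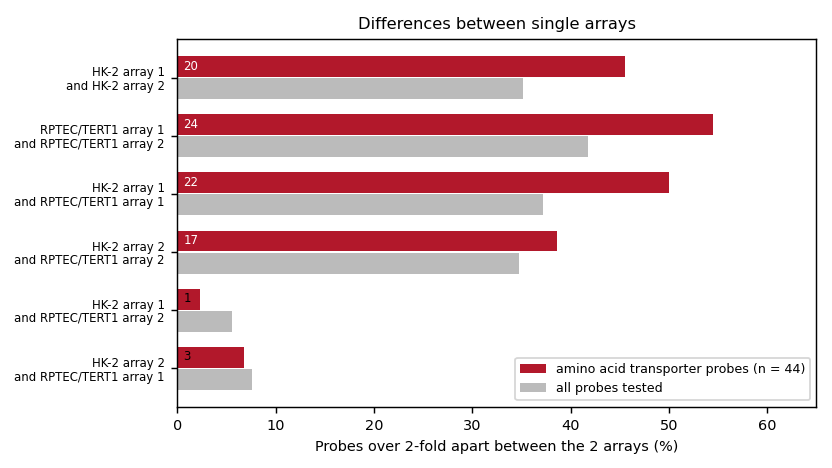
Share of probes (%, horizontal axis) over 2-fold apart in each of the 6 pairs of arrays, for the 44 amino acid transporter probes tested (red, with their number) and for all probes tested (grey). The transporter bars reach 38.6% to 54.5% in the 4 upper pairs, and 2.27% and 6.82% in the 2 lower pairs, which cross both label and replicate number.

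The difference between array 1 and array 2 ran in opposite directions in the 2 labelled lines for most transporters. Array 1 minus array 2 had opposite signs in 36 of 44 probes (81.8%, against 74.9% of all probes). In 17 of 44 (38.6%, against 24.2%) it passed 1 log2 unit in both lines, in opposite directions, and in 0 of 44 it did so in the same direction (251 of 20806 of all probes). HK-2 array 1 and RPTEC/TERT1 array 2 were the 2 brightest arrays for 18 of 44 probes (40.9%, against 38.1% of all), and HK-2 array 2 and RPTEC/TERT1 array 1 for 17 (38.6% against 33.5%). Each array of the first pair was over 2-fold above each array of the second for 6 probes (13.6%, against 11.8%), of SLC1A1, SLC3A1, SLC6A12, SLC6A16 and SLC6A6. The reverse held for 10 probes (22.7%, against 11.2%), of SLC1A4, SLC1A5, SLC38A5, SLC6A15, SLC6A8, SLC6A9, SLC7A5, SLC7A7 and SLC7A11. The probes of SLC3A1 and SLC6A12 among the 6, and of SLC1A4 and SLC6A15 among the 10, passed the filter only through the 2 arrays where they were high. For these probes the filter favoured the gap. These counts describe 4 arrays and set no transporter apart from other genes.

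**Figure D2:**
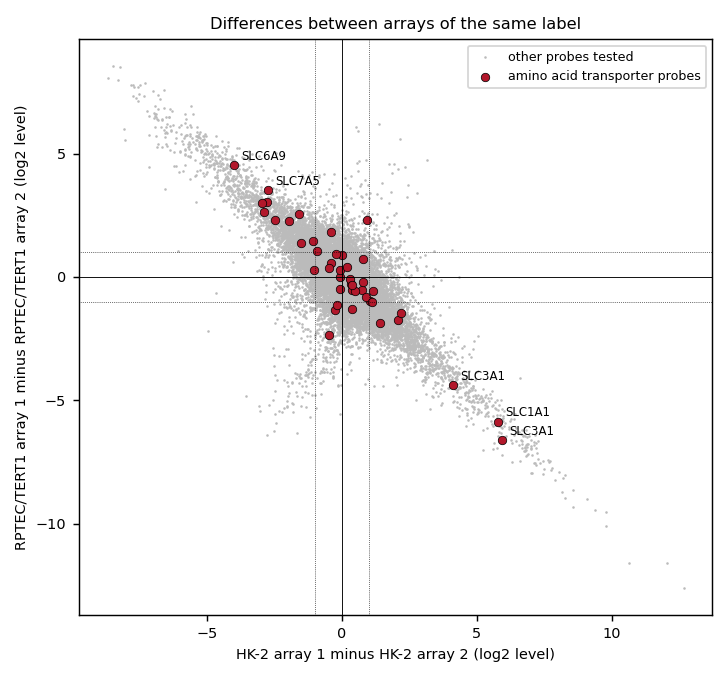
Each point is a probe, with the log2 level on HK-2 array 1 minus HK-2 array 2 on the horizontal axis and the same difference for RPTEC/TERT1 on the vertical axis; red points are the 44 transporter probes, grey points the other probes tested, dotted lines mark 1 log2 unit. The red points run from upper left (SLC6A9 and SLC7A5) to lower right (SLC1A1 and both SLC3A1 probes), and no red point lies past 1 in the same direction in both lines.

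Among the heavy chains, SLC3A1 (rBAT), which carries the cystine transporter of the brush border and is mutated in cystinuria, had the widest spread. Its probe A_24_P217234 (chr2:44547688-44547747, GRCh37) read 0.57 and the floor on HK-2 arrays 1 and 2, and the floor and 1.23 on RPTEC/TERT1 arrays 1 and 2. SLC3A1 was thus well above background on 1 array of each label. With the scaling and floor used here it was at least 61.3-fold higher on HK-2 array 1 than on array 2. On RPTEC/TERT1 array 2 it was at least 97.1-fold higher than on array 1. As array 1 minus array 2 these differences were 5.94 and -6.6 log2 units. They were smaller with normexp background correction, at 3.45 and -4.2, and under the log2 values deposited by the authors, at 3.47 and -3.97. The bounds therefore do not hold under those 2 alternatives. Its probe A_33_P3418426 showed the same arrays bright, at -1.25 and -0.98, with bounds of at least 17.4-fold and 21.0-fold. Probe A_33_P3418421 was well above background only on RPTEC/TERT1 array 2 at -4.01, and A_33_P3418417 on no array. SLC3A1's light chain SLC7A9 stayed at the floor on all 4 arrays.

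SLC3A2 (CD98), the heavy chain of most other SLC7 light chains, was well above background on all 4 arrays. Its level was 0.09 and 0.50 on HK-2 arrays 1 and 2, and 1.45 and -0.39 on RPTEC/TERT1 arrays 1 and 2 (probe A_23_P75811). RPTEC/TERT1 array 1 was highest, 3.58-fold above array 2, while the HK-2 arrays were 1.33-fold apart. The mean was 0.29 ± 0.29 in HK-2 and 0.53 ± 1.3 in RPTEC/TERT1 (SD, n = 2), so the lines overlapped.

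SLC7A5 (LAT1), which pairs with SLC3A2 to exchange large neutral amino acids such as leucine, was bright on 1 array of each label. Probe A_24_P335620 (chr16:87863907-87863966, GRCh37) read -1.0 and 1.73 on HK-2 arrays 1 and 2, and 1.99 and -1.51 on RPTEC/TERT1 arrays 1 and 2. The HK-2 arrays were 6.65-fold apart and the RPTEC/TERT1 arrays 11.4-fold apart, in opposite order of array number. HK-2 minus RPTEC/TERT1 was 0.13 ± 1.57 (SE), with an adjusted p of 1 in limma.

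SLC7A11 (xCT), the SLC3A2 partner that exchanges cystine for glutamate and feeds glutathione synthesis, had the same 2 arrays highest with a smaller gap. Its level was -0.04 and 1.46 on HK-2 arrays 1 and 2, and 1.18 and -0.19 on RPTEC/TERT1 arrays 1 and 2. These were 2.84-fold and 2.58-fold gaps within a label. GCLM, a subunit of the enzyme that starts glutathione synthesis, read 3.19, 3.62, 3.38 and 3.86 in the same order of arrays and was under 2-fold apart in every pair. GCLC, the other subunit, was added after its values were seen and read 1.38, 0.47, 0.20 and 1.53, with HK-2 array 1 and RPTEC/TERT1 array 2 highest and 3 of the 6 pairs over 2-fold apart.

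SLC7A7 (y+LAT1), the basolateral exporter of cationic amino acids that is lost in lysinuric protein intolerance, read -3.77 and -0.89 on HK-2 arrays 1 and 2, and -1.37 and -3.99 on RPTEC/TERT1 arrays 1 and 2. HK-2 array 2 and RPTEC/TERT1 array 1 were the high arrays, 7.36-fold and 6.16-fold above the other array of their label. With normexp background correction the HK-2 difference, array 1 minus array 2, turned from below 0 to 0.64. It was -1.35 once 7 spots of bright local background on HK-2 array 1 were left out. Under the deposited log2 values it was -0.06, against -2.88 here.

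The other light chains were dim. SLC7A6 (y+LAT2) read -3.12 and -4.07 on HK-2 arrays 1 and 2 and -2.54 on RPTEC/TERT1 array 1, and was not well above background on RPTEC/TERT1 array 2. Its pattern followed neither label nor the crossing of SLC7A5 and SLC7A7. SLC7A8 (LAT2), the basolateral exchanger of neutral amino acids, was well above background only on HK-2 array 1, at -5.06, close to the floor, and SLC7A10 lay at the floor throughout. The cationic amino acid carriers SLC7A1 (CAT1) and SLC7A2 (CAT2), which need no heavy chain, were well above background on all arrays. SLC7A1 read 2.08 and 1.30 on HK-2 arrays 1 and 2, and 2.24 and 1.51 on RPTEC/TERT1 arrays 1 and 2, so array 1 was the higher array in both lines, by 1.72-fold and 1.66-fold. SLC7A2 read 1.76, 0.65, 0.47 and 1.48 in that order, with HK-2 array 1 and RPTEC/TERT1 array 2 highest.

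**Figure D3:**
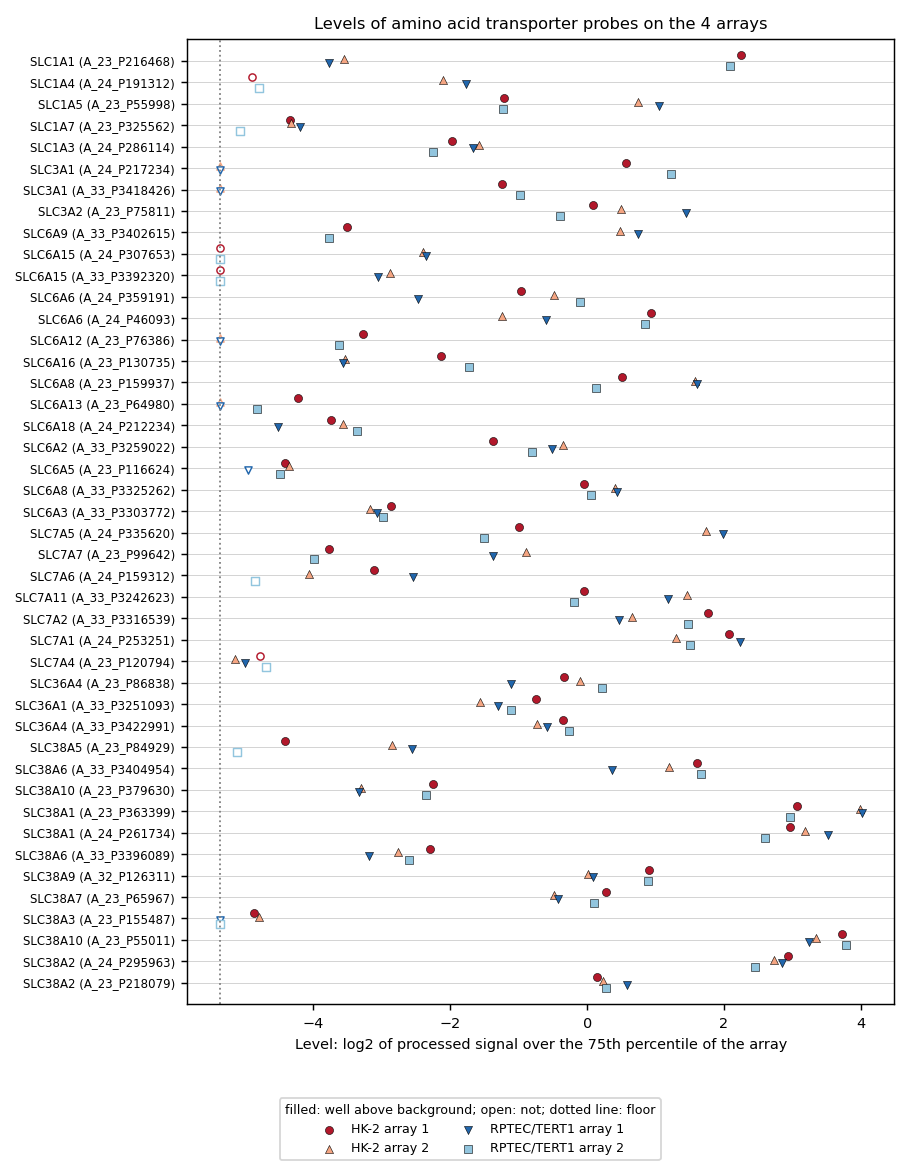
Level (log2 of processed signal over the 75th percentile of the array, horizontal axis) of the 44 transporter probes well above background on at least 2 arrays, ordered by family and then by range; circles and upward triangles are HK-2 arrays 1 and 2, downward triangles and squares RPTEC/TERT1 arrays 1 and 2. Open symbols were not well above background and the dotted line is the floor of -5.37; SLC1A1 and SLC3A1 have circles and squares far to the right of both triangles, SLC7A5 and SLC6A9 the reverse.

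In the SLC1 family, SLC1A1 (EAAT3), the glutamate carrier of the proximal tubule brush border, differed most between arrays of 1 label. Probe A_23_P216468 (chr9:4587002-4587061, GRCh37) read 2.25 and -3.55 on HK-2 arrays 1 and 2, and -3.77 and 2.09 on RPTEC/TERT1 arrays 1 and 2. All 4 arrays were well above background, and the gap within a label was 55.5-fold in HK-2 and 58.2-fold in RPTEC/TERT1. As array 1 minus array 2 these gaps were 5.8 and -5.86 log2 units. They were smaller under normexp correction, at 3.66 and -4.34, and under the deposited log2 values, at 4.02 and -4.1. Between arrays of opposite label and number the folds were 1.11 and 1.17. Its mean was -0.65 ± 4.1 in HK-2 and -0.84 ± 4.15 in RPTEC/TERT1 (SD, n = 2).

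SLC1A5 (ASCT2), the sodium-dependent glutamine exchanger, ran the other way. Its level was -1.22 and 0.74 on HK-2 arrays 1 and 2, and 1.05 and -1.23 on RPTEC/TERT1 arrays 1 and 2, gaps of 3.90-fold and 4.87-fold with the same 2 arrays high as for SLC7A5. SLC1A4 (ASCT1), a carrier of alanine, serine and cysteine, was well above background only on those 2 arrays, HK-2 array 2 at -2.11 and RPTEC/TERT1 array 1 at -1.77. SLC1A4 was at least 6.85-fold above the other HK-2 array and at least 8.16-fold above the other RPTEC/TERT1 array. However, normexp correction turned its HK-2 difference from below 0 to 1.38, and it was -0.83 without the 7 bright-background spots. Under the deposited log2 values it also turned, to 0.58. SLC1A3, a glutamate carrier known from glia, read -1.98 and -1.58 on HK-2 arrays 1 and 2, and -1.67 and -2.25 on RPTEC/TERT1 arrays 1 and 2. It was under 2-fold apart in every pair of arrays.

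In the SLC6 family, the carriers that reabsorb neutral amino acids in the kidney had low signal or none above background. SLC6A19 (B0AT1), mutated in Hartnup disorder, was well above background only on HK-2 array 2, at -4.80, and SLC6A20 on no array. SLC6A18 (B0AT3), a relative of SLC6A19, read -3.74, -3.56, -4.51 and -3.36 on HK-2 arrays 1 and 2 and RPTEC/TERT1 arrays 1 and 2. CLTRN (collectrin), which brings these carriers to the brush border, was low on all arrays at -3.71, -4.07, -4.58 and -3.71. Both SLC6A18 and CLTRN were well above background on every array.

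SLC6A9 (GLYT1), a glycine carrier, had the widest spread of this family. Probe A_33_P3402615 (chr1:44462162-44462221, GRCh37) read -3.51 and 0.48 on HK-2 arrays 1 and 2, and 0.75 and -3.77 on RPTEC/TERT1 arrays 1 and 2. HK-2 array 2 and RPTEC/TERT1 array 1 were high, by 15.9-fold and 23.0-fold within their labels. A second SLC6A9 probe, A_23_P11984, was well above background only on HK-2 array 2 and lay at the floor on that array, so it gives no difference to set beside the first.

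SLC6A6 (TauT), which takes up the osmolyte taurine, also had probes that disagreed. Probe A_24_P46093 read 0.94 and -1.24 on HK-2 arrays 1 and 2, and -0.60 and 0.84 on RPTEC/TERT1 arrays 1 and 2, so HK-2 array 1 and RPTEC/TERT1 array 2 were high. Probe A_24_P359191 read -0.96, -0.49, -2.47 and -0.11 in the same order, with RPTEC/TERT1 array 1 alone low. Their HK-2 differences lay 2.65 log2 units apart, so no single direction is given for SLC6A6.

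SLC6A8, the creatine carrier, read 0.51 and 1.58 on HK-2 arrays 1 and 2, and 1.61 and 0.13 on RPTEC/TERT1 arrays 1 and 2 (probe A_23_P159937). A second SLC6A8 probe had the same arrays high but stayed under 2-fold apart in every pair. SLC6A16, a family member whose substrate is not known, read -2.13, -3.54, -3.57 and -1.72, with HK-2 array 1 and RPTEC/TERT1 array 2 highest. The norepinephrine carrier SLC6A2 read -1.37, -0.36, -0.52 and -0.80 on probe A_33_P3259022 while its other probe was not well above background, and normexp correction turned its HK-2 difference from below 0 to 0.26.

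The next 3 genes were picked out after their values were seen. SLC6A12 (BGT1), which takes up betaine, read -3.28 on HK-2 array 1 and -3.63 on RPTEC/TERT1 array 2, and its neighbour on chromosome 12, SLC6A13 (GAT2), read -4.22 and -4.82 on the same arrays. Both genes were at the floor on the other 2 arrays. SLC6A15 (B0AT2), a carrier of branched-chain amino acids and proline, showed the reverse, at -2.40 on HK-2 array 2 and -2.36 on RPTEC/TERT1 array 1 and the floor elsewhere (probe A_24_P307653). For SLC6A15 normexp correction turned the HK-2 difference from below 0 to 1.80 on this probe, and it was -0.82 without the 7 bright-background spots. Under the deposited log2 values it also turned, to 0.92.

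In the SLC38 family, the sodium-coupled glutamine carriers SLC38A1 (SNAT1) and SLC38A2 (SNAT2) were well above background throughout. SLC38A1 read 3.07 and 3.98 on HK-2 arrays 1 and 2, and 4.02 and 2.97 on RPTEC/TERT1 arrays 1 and 2, with gaps of 1.88-fold and 2.06-fold within a label. Its other probe, A_24_P261734, read 2.97, 3.18, 3.52 and 2.60 with the same 2 arrays highest. SLC38A2, which is known to rise when amino acids are withdrawn, read 2.93, 2.73, 2.84 and 2.45 and was under 2-fold apart in every pair.

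SLC38A3 (SNAT3), the basolateral glutamine carrier of the proximal tubule, was well above background only on the HK-2 arrays, at -4.87 and -4.80, and at the floor on both RPTEC/TERT1 arrays. This was the 1 transporter seen on both arrays of one label and on neither of the other, with a difference of 0.54 ± 0.44 (SE) and an adjusted p of 1 in limma, close to the floor. The order of labels for SLC38A3 was not kept under other processing, where HK-2 array 2 lay below both RPTEC/TERT1 arrays. HK-2 array 2 minus RPTEC/TERT1 arrays 1 and 2 was -0.19 and -0.31 under normexp correction. It was -0.17 and -0.29 without the 7 bright-background spots, and -0.25 and -0.23 under the deposited log2 values. SLC38A5 (SNAT5), which moves glutamine and glycine, read -4.42 and -2.85 on HK-2 arrays 1 and 2 and -2.56 on RPTEC/TERT1 array 1. It was not well above background on RPTEC/TERT1 array 2. With normexp correction the HK-2 difference of SLC38A5 turned from below 0 to 1.92, and it was -0.22 without the 7 bright-background spots. Under the deposited log2 values it also turned, to 1.1. SLC38A6 read 1.60, 1.20, 0.36 and 1.67 on probe A_33_P3404954, and SLC38A10 read -2.25, -3.31, -3.33 and -2.36 on probe A_23_P379630. RPTEC/TERT1 array 1 alone was low for SLC38A6, and HK-2 array 1 and RPTEC/TERT1 array 2 were high for SLC38A10.

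The next 3 carriers are known from lysosomal membranes. SLC38A9, which reports lysosomal arginine to the kinase mTORC1, read 0.90 and 0.01 on HK-2 arrays 1 and 2, and 0.08 and 0.89 on RPTEC/TERT1 arrays 1 and 2. SLC36A1 (PAT1), a proton-coupled carrier of small amino acids, read -0.75, -1.56, -1.30 and -1.11, and both stayed under 2-fold apart in every pair. SLC36A4 read -0.34, -0.10, -1.11 and 0.22 on probe A_23_P86838, with RPTEC/TERT1 array 1 lowest. Its 2 probes differed by up to 1.16 log2 units in a difference between arrays.

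The amino acid response list, 34 genes that ATF4 and its partners are known to act on or belong with, gave 41 probes for the test. limma called 0 of them for HK-2 against RPTEC/TERT1, with 0 at an unadjusted p under 0.05 and a median difference of -0.016. Within labels the list leaned to 1 array. HK-2 array 2 was over 2-fold above array 1 in 23 of 40 probes (17.0% of all probes) and the reverse held in 1 (18.1%). RPTEC/TERT1 array 1 was over 2-fold above array 2 in 21 of 41 (19.2%) and the reverse held in 1 (22.6%). Under normexp correction the HK-2 counts were 18 and 10, under the deposited log2 values 17 and 8, and under normexp without the 7 bright-background spots 19 and 1. Between HK-2 array 1 and RPTEC/TERT1 array 2 no listed probe was over 2-fold apart, and none was between HK-2 array 2 and RPTEC/TERT1 array 1. The first of these counts was 19 of 41 under normexp correction (12 higher on HK-2 array 1) and 9 under the deposited values (7 higher), and 0 under normexp without the 7 bright-background spots.

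ATF4 itself was bright everywhere, at 5.42 and 6.31 on HK-2 arrays 1 and 2, and 6.20 and 5.61 on RPTEC/TERT1 arrays 1 and 2, under 2-fold apart in every pair. ASNS, which makes asparagine, read 1.37 on HK-2 array 1, 5.21 and 1.26 on RPTEC/TERT1 arrays 1 and 2, and had no value on HK-2 array 2, where its spot was marked as an outlier. CHAC1, which breaks down glutathione, read -0.67, 2.17, 2.68 and -0.85. These values had HK-2 array 2, where measured, and RPTEC/TERT1 array 1 above the other arrays. SLC7A5, SLC1A5, SLC1A4, SLC7A11 and SLC6A9 were high on those arrays. SLC3A2 was also highest there, but its HK-2 arrays were 1.33-fold apart. SLC7A1, which has the C/EBP-ATF element, did not have those arrays highest, at 2.08, 1.30, 2.24 and 1.51. Nor did SLC38A2, at 2.93, 2.73, 2.84 and 2.45, and SLC1A1 and SLC3A1 were high on the opposite arrays.

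TRIB3, a pseudokinase induced by ATF4, read 2.31, 5.75, 5.08 and 3.02, and DDIT3 (CHOP) -1.28, -0.03, -0.47 and -0.71. The 4 listed genes with the widest range were PHGDH, STC2, DDIT4 and PSAT1. PHGDH, the first enzyme of serine synthesis, read -4.21 and 3.54 on HK-2 arrays 1 and 2, and 3.43 and -4.34 on RPTEC/TERT1 arrays 1 and 2. PSAT1, the next enzyme of that pathway, read 0.53, 4.38, 3.99 and 0.38. STC2, a secreted glycoprotein, read -5.12 (not well above background), -0.21, -0.87 and -4.28, and DDIT4, an inhibitor of mTORC1, 0.79, 5.00, 5.41 and 1.71. For each of these 6 genes HK-2 array 2 and RPTEC/TERT1 array 1 were the 2 highest arrays. ATF5, an ATF4 relative, ran the other way at 0.83, -1.80, -1.98 and 1.12, and was picked out after its values were seen.

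**Figure D4:**
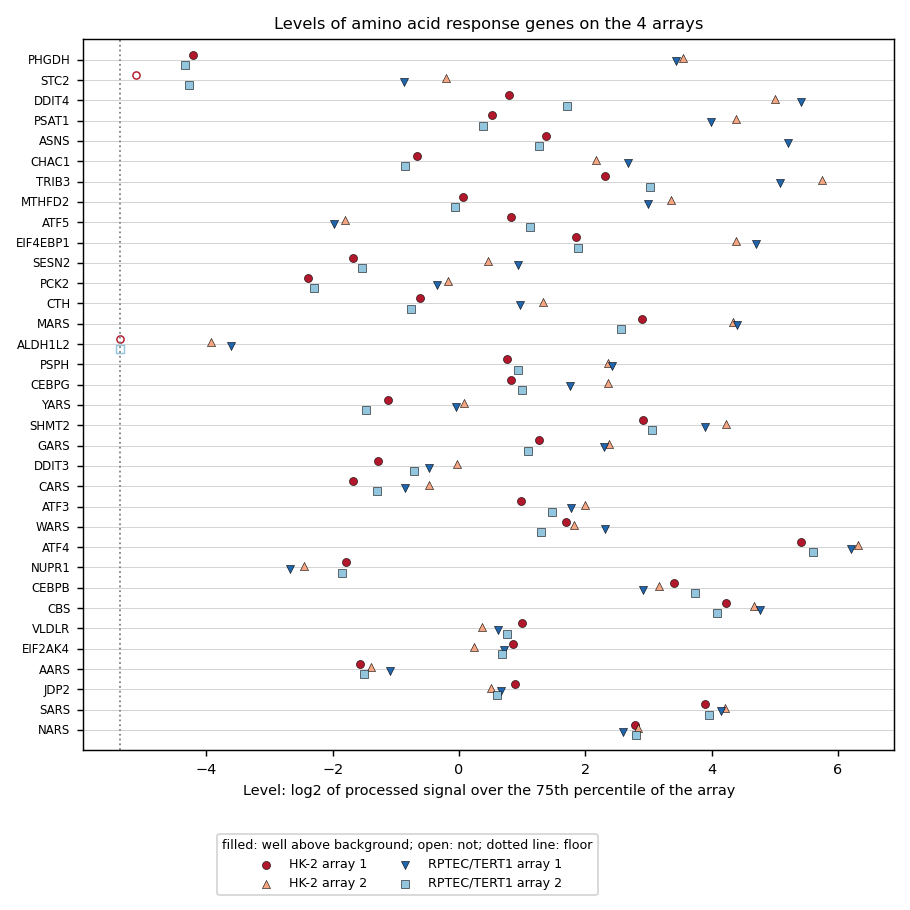
Level (log2 of processed signal over the 75th percentile of the array, horizontal axis) of the 34 amino acid response genes, 1 probe a gene, ordered by range; symbols as in the plot of transporter levels. For PHGDH the HK-2 array 2 and RPTEC/TERT1 array 1 symbols lie at 3.54 and 3.43 and the other 2 at -4.21 and -4.34, and ATF5 shows the reverse order.

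The other lists were counted in the same way. Among probes for lysosomal amino acid sensing, such as the Rag GTPases and the Ragulator subunits, HK-2 arrays 1 and 2 were over 2-fold apart in 9 of 24 (35.2% of all probes), 8 higher on array 1 (18.1%) and 1 on array 2 (17.0%). RPTEC/TERT1 arrays 1 and 2 were so in 14 of 25 (41.8%), 4 higher on array 1 (19.2%) and 10 on array 2 (22.6%). Among probes for transport partners and other amino acid carriers, 6 of 17 were over 2-fold higher on HK-2 array 1 than on array 2 (18.1%) and 0 lower (17.0%). On RPTEC/TERT1 array 2, 6 of 16 were over 2-fold higher than on array 1 (22.6%) and 0 lower (19.2%). limma called 0 probes of either list, with 0 at an unadjusted p under 0.05.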

How the data were processed

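Gene expression was measured on 4 one-colour arrays, grouped by sample label into HK-2 (n = 2) and RPTEC/TERT1 (n = 2). For RNA isolation the labels give the RNeasy kit and the methods the innuPREP kit. The authors deposited the intensity of each spot from Agilent Feature Extraction 9.5.3.1, background-subtracted and detrended within each array but not scaled between arrays. A second set of values deposited by the authors is on a log2 scale, with medians of 8.33, 7.14, 6.75 and 6.72 on HK-2 arrays 1 and 2 and RPTEC/TERT1 arrays 1 and 2, whose correction, scaling and centring are not given in the sources used here. Within each array they ranked like the intensities (Spearman 0.992 to 0.995 across spots), so a higher value means a brighter spot. That ranking does not cover differences between arrays, some of which turned. These values served as an alternative.

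Outlier spots and control spots did not enter. Each signal was scaled to its array's 75th percentile, raised to 0.0242 of it where lower, and log2-transformed. That floor is the brightest, over the arrays, of each array's dimmest scaled signal still marked well above background. Probes with several spots took the mean of them and counted as well above background when at least as many spots had the mark as lacked it. Probes were kept apart, since probes of a gene can disagree. Folds against an array where the probe was not well above background are bounds ("at least"). limma 3.58.1 (lmFit and eBayes, R 4.3.3), tested on simulated data, was run per probe on those well above background on at least 2 arrays, with Benjamini-Hochberg adjustment over all of them at 0.05. Single arrays were compared without a test. The number of arrays limits the precision.

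Arrays with the same replicate number did not deviate together from the means of their labels (correlation -0.795 across 20806 probes), and with 2 arrays a label the crossed pairing gives the same value with the sign turned. No slide holds more than 1 of the arrays, and the 2 cannot be told apart. Probe positions are those of the files (GRCh37), and the exon or UTR under a probe was not analysed here. The RefSeq tables (GRCh38.p14) gave names and promoters; 75 of 78 transcripts were found there, all under the same symbol.

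Named genes are 26 transporters chosen by role, the 8 further probes with the widest range among those well above background on all arrays, 7 list genes (ATF4, ASNS, CHAC1, TRIB3, DDIT3, GCLM, CLTRN) and the 4 list genes of widest range. A further gene that the rule names is not reported here. Members, lists and named genes were chosen with earlier results of these data known. The alternatives were normexp correction, quantile normalization, the deposited log2 values, other filters on dim probes, outlier spots kept, gene means, a replicate block and leaving out each array. Added after seeing the data were a crossed replicate block and normexp without the spots of bright local background.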

Additional observations from a re-analysis of the deposited data

Results flagged for a closer look

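For 17 transporter probes, array 1 minus array 2 passed 1 log2 unit in HK-2 in one direction and in RPTEC/TERT1 in the other (38.6% of 44, against 24.2% of all probes). Among them, the probes of SLC3A1, SLC1A4, SLC6A12 and SLC6A15 passed the filter only through the 2 arrays where they are bright, so the filter favoured a difference. The difference between the lines was not tested, since each rests on single arrays. The 17 probes include those of SLC1A1, SLC3A1, SLC7A5, SLC1A5, SLC6A9 and SLC7A7.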

How the results depend on the processing

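limma called 0 transporter probes and 0 of all probes between HK-2 and RPTEC/TERT1 under every alternative run, with 7 to 309 probes at an unadjusted p under 0.05, among them 1 transporter probe, without a filter. With the replicate number as a block (replicate block) limma again called 0, with 15 at an unadjusted p under 0.05, and with a crossed block 0, with 206. Leaving out each array in turn also gave 0 calls and median levels of the named probes from -1.26 to -0.99, against -1.09 with all arrays; the lone array of a label was then assumed to vary like the others.

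There were 83 transporter differences past 1 log2 unit within a label or an array number. All kept their direction under quantile normalization, with outlier spots kept and under normexp without the bright-background spots. In that order, 82, 83 and 59 of them stayed past 1 log2 unit in the same direction. That number was 55 under normexp and 60 under the deposited log2 values. Under normexp 11 turned and under the deposited log2 values 9, all of them differences with HK-2 array 1. The 9 were differences of SLC1A4, SLC38A5, SLC6A15 and SLC7A7. HK-2 array 1 has 7 spots of local background over 200, and with those left out of normexp 0 turned. Transporter probes over 2-fold apart between HK-2 array 1 and RPTEC/TERT1 array 2 numbered 1, but 22 under normexp (20 higher on HK-2 array 1), 16 under the deposited values (16), 2 without a filter, 0 with only probes well above background on all arrays and 0 under normexp without the bright-background spots. Between HK-2 array 2 and RPTEC/TERT1 array 1 there were 3, but 1 under normexp with or without those spots, under the deposited values and with gene means, and 5 under quantile normalization. HK-2 arrays 1 and 2 were over 2-fold apart in 9 probes higher and 11 lower on array 1. These counts became 22 and 5 under normexp, 18 and 6 under the deposited values, and 7 and 7 under normexp without the bright-background spots. RPTEC/TERT1 arrays 1 and 2 were so in 13 probes higher and 11 lower on array 1. These became 9 and 8 under normexp with or without those spots, and 10 and 8 under the deposited values. HK-2 array 2 and RPTEC/TERT1 array 1 were brightest for 17 probes, but 10 under normexp and 11 under the deposited values. With only probes well above background on all arrays, fewer probes were compared: the counts were 12 for the HK-2 arrays, 14 for both arrays 1 and 10 for both arrays 2, and the median named level was -0.09. Low signal limits probes near the floor, which have no order there.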
